A study of Oryzias latipes with 10 samples.

Results

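Genes whose protein products work at the inner face of the cell membrane were followed through all 10 libraries of a medaka (Oryzias latipes) RNA-seq series: the paralogs marcksl1a (ENSORLG00000024032) and marcksl1b (ENSORLG00000014159), which encode MARCKS-like proteins, and akap12b (ENSORLG00000027717), which encodes an A-kinase anchoring protein. They were taken by name, with earlier results of these data known. They are 3 of the 24365 genes in the count table, and all 3 were among the 16513 genes tested. The study had reported the MARCKS-like genes as lower in yap mutants and akap12b as activated by Yap. Their calls here are thus no independent test. The series asked which transcripts depend on the Yap transcriptional co-activators while the embryo axis is being assembled. Whole embryos were collected at stage 16, during gastrulation, from yap-/- yap1b-/- embryos (double mutants, 3 libraries), yap-/- embryos (single mutants, 3 libraries) and wild type embryos (WT, 4 libraries). All embryos were raised in E3 medium at 28 ºC, and RNA of individually genotyped embryos was merged by genotype, so that a library is a pool of embryos and not an animal. The study states that the embryos came from several random crosses, but not how the crosses were divided among the pools of a genotype, and p-values measure only the spread between the pools.

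MARCKS and MARCKS-like proteins are anchored in the plasma membrane by a myristoyl group and by a short basic stretch that also binds actin filaments and calmodulin and shields the phospholipid PIP2. Phosphorylation of that stretch by protein kinase C, or binding of calmodulin, loosens the protein from the membrane and frees PIP2, which in turn acts on actin-regulating proteins at the cell edge. AKAP12, known as gravin or SSeCKS in mammals, is a large scaffold that holds protein kinase A and protein kinase C near the membrane. These roles come mostly from work on mammalian cells.

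In the annotation of ASM223467v1, the assembly to which the reads were mapped, RefSeq places marcksl1a (LOC101162798 there) on chromosome 22, bases 17537449 to 17540094, a span of 2646 bases. It places marcksl1b (LOC101173561) on chromosome 11, bases 26663508 to 26665784, a span of 2277 bases. RefSeq lists the gene of akap12b as akap12, on chromosome 24, bases 8889522 to 8922817, a span of 33296 bases. None of the 3 spans overlaps another RefSeq gene. The nearest neighbour of marcksl1a lies 812 bases away, and akap12b lies 620 bases from zbtb2 and 2964 bases from mthfd1l. The MARCKS-like genes therefore lie on different chromosomes, and each has its own count in the table. Only reads mapped with a quality of 60 were counted, and whether stretches that the paralogs share lost reads was not tested.

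Gene counts summed to 29521935 to 30627401 in the double mutant libraries, 22053738 to 37776961 in the single mutant libraries and 28978596 to 38383959 in the WT libraries. WT 4 stood apart from the other WT libraries: its Pearson correlation of log2 CPM across genes, which are not independent replicates, was 0.951 to 0.952 with WT 1 to 3, whereas WT 1 to 3 correlated at 0.989 to 0.990 with each other. With the double mutants WT 4 correlated at 0.958 to 0.970, higher than with the other WT libraries. Single mutant 1 also stood apart, with correlations of 0.956 to 0.971 with single mutants 2 and 3, which correlated at 0.985. All comparisons used a model with a term for 2 sets of libraries, WT 4 with the double mutants and WT 1 to 3 with the single mutants. No label gives these sets, which were read from values in the study's tables. In that model the double mutants are set against WT 4 alone, whose own spread is unknown and is taken to equal that of the other libraries. Levels are given as CPM, counts brought to a common library size after TMM scaling. Of the mutated genes, yap1 had 83.3 to 103 CPM in double mutants, 81.7 to 92.1 CPM in single mutants, 168 CPM in WT 4 and 278 to 288 CPM in WT 1 to 3. Its paralog yap1b had 26.0 to 29.4 CPM in double mutants, 57.1 to 72.3 CPM in single mutants and 69.9 to 83.2 CPM in WT. Every mutant library was thus below every WT library for yap1, and for yap1b the double mutants were below all others while single mutants and WT overlapped.

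All 3 genes passed the test and were lower in double mutants, marcksl1b and akap12b also in single mutants, and marcksl1b was left with the smallest share of its WT level. In every mutant library, double or single, each of the 3 genes stood below every WT library, as did 3.75% of all genes tested (15.7% for the double and 6.03% for the single mutants taken by themselves). In these whole-embryo libraries, fewer cells that express a gene and less of its RNA per cell cannot be told apart.

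The level of marcksl1a was 435, 440 and 407 CPM in double mutants 1 to 3, 992, 560 and 627 CPM in single mutants 1 to 3, and 1428, 1590, 1324 and 1319 CPM in WT 1 to 4. The groups did not overlap: double mutants were lowest and closely grouped, single mutants lay between, and single mutant 1 stood well above the other single mutants. These CPM hold no correction for the set, which differs between double and single mutants. The share of all genes in this order was not counted. Group means were 427 ± 18.03 CPM in double mutants (SD, n = 3), 726 ± 232 CPM in single mutants (SD, n = 3) and 1415 ± 127 CPM in WT (SD, n = 4). Of the libraries that stood apart across all genes, WT 4 was next to WT 3 here and single mutant 1 was apart from the other single mutants. Between 11791 and 58050 reads of the gene were counted per library.

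For marcksl1b, double mutants 1 to 3 had 38.9, 42.1 and 35.4 CPM, single mutants 1 to 3 had 52.8, 17.5 and 31.1 CPM, and WT 1 to 4 had 200, 218, 197 and 187 CPM. The lowest WT library was 4.45 times the highest double mutant library and 3.54 times the highest single mutant library. The order of the mutants seen for marcksl1a was absent here: the single mutants spread on both sides of the double mutants, with the highest and the lowest value both in single mutants. Means were 38.8 ± 3.34 CPM in double mutants (SD, n = 3), 33.8 ± 17.8 CPM in single mutants (SD, n = 3) and 200.5 ± 13.04 CPM in WT (SD, n = 4). The mutant libraries held 646 to 1230 reads of the gene and the WT libraries 5469 to 8088. Single mutant 2 kept 8.73% of the WT mean and single mutant 1 kept 26.4%.

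The scaffold gene akap12b had 234, 409 and 360 CPM in double mutants 1 to 3, 294, 377 and 409 CPM in single mutants 1 to 3, and 1002, 875, 973 and 1034 CPM in WT 1 to 4. Here the mutant genotypes covered much the same range, and library 1 of each mutant genotype was the lowest of its group. Means were 334 ± 90.1 CPM in double mutants (SD, n = 3), 360 ± 59.6 CPM in single mutants (SD, n = 3) and 971 ± 68.8 CPM in WT (SD, n = 4). The lowest WT library was 2.14 times the highest library of either mutant genotype.

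**Figure D1:**
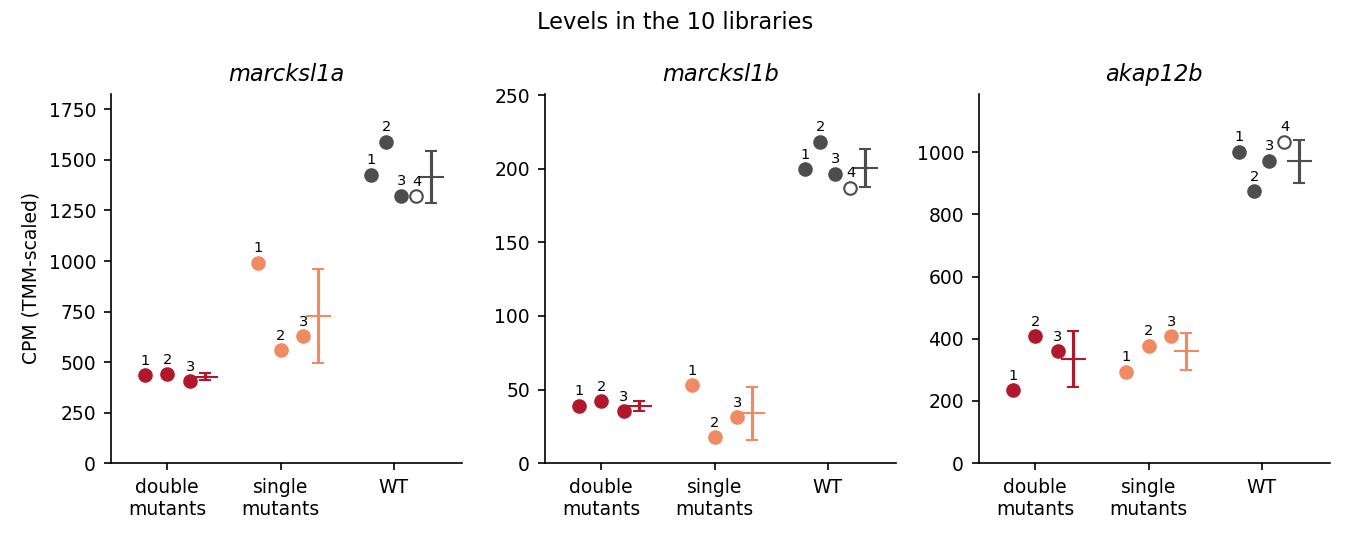
CPM on TMM-scaled library sizes (vertical axes, from 0) of marcksl1a, marcksl1b and akap12b in double mutants, single mutants and WT; points are libraries, marked with their replicate number, the open point is WT 4, and bars are the mean ± SD. Every mutant library lies below every WT library for the 3 genes, and single mutant 1 lies highest of the mutants for marcksl1a (992 CPM) and marcksl1b (52.8 CPM).

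Single mutant 1 and double mutant 1 were each the lowest of their genotype in akap12b, but they differed in the MARCKS-like genes. In single mutant 1 the MARCKS-like genes were the highest of the mutant libraries, with marcksl1a at 70.1% and marcksl1b at 26.4% of the WT mean, whereas akap12b, at 30.2%, was the lowest of the single mutants. In double mutant 1, akap12b was at 24.1% of the WT mean while marcksl1a and marcksl1b, at 30.8% and 19.4%, were within the range of the other double mutants. Single mutant 1 was the shallowest library (22053738 counts), and these libraries had the lowest TMM factors (0.887 and 0.902, against 0.971 to 1.06 in the others). They also had the highest shares of ambiguous reads, 9.60% and 9.86%. Whether depth or composition had a part in their values was not tested.

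The comparison of double mutants with WT asks which transcripts change when both yap genes are mutated. All 3 genes passed the test there and were lower, where 2.02% of the 16513 genes tested were (edgeR quasi-likelihood test, Benjamini-Hochberg adjusted p under 0.05). With log2 fold changes of −1.63 ± 0.26 (SE) for marcksl1a and −1.63 ± 0.27 for akap12b, both fell to about the same share of WT, 32.4% (95% interval 21.5% to 48.8%) and 32.3% (21.3% to 49.1%). For marcksl1b the log2 fold change was −2.27 ± 0.40, which left 20.7% of the WT level (11.2% to 38.3%), and 125 of the genes tested had a lower one. Adjusted p from edgeR was 0.0128 for marcksl1a, 0.0183 for marcksl1b and 0.0140 for akap12b. The median log2 fold change of all genes tested was 0.01. Without the term for the set, which brings in WT 1 to 3 directly, the log2 fold change was −1.73 for marcksl1a, −2.37 for marcksl1b and −1.54 for akap12b, and the 3 genes passed again, but 13.1% of all genes tested were then called lower. The call of marcksl1b was lost without double mutant 2 (adjusted p = 0.0600, edgeR) or without double mutant 3 (0.0551). That of akap12b was lost when the double mutants and WT 4 were fitted by themselves (0.0871).

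In single mutants, which keep yap1b, marcksl1b and akap12b passed the test and were lower, 2 of the 3 genes where 0.600% of all genes tested were. For marcksl1b the log2 fold change was −2.61 ± 0.32 (SE), with 16.4% of the WT level left (95% interval 9.92% to 27.2%) and an edgeR adjusted p of 0.0095. Only 31 of the 16513 genes tested had a lower fold change. The scaffold gene akap12b had a log2 fold change of −1.40 ± 0.21, with 37.9% of the WT level left (27.4% to 52.4%) and an adjusted p of 0.020. For marcksl1a the log2 fold change was −0.995 ± 0.202, or 50.2% of the WT level (36.6% to 68.7%), and the adjusted p of 0.0723 missed the threshold, although no single mutant library reached the WT range. Thus marcksl1b and akap12b were called lower in both mutants, as were 0.460% of all genes tested. The median log2 fold change of all genes was 0.02.

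Several of these calls changed with the libraries in the fit. Without single mutant 1, marcksl1a had a log2 fold change of −1.30 and an edgeR adjusted p of 0.0036. It also passed when single mutant 1 was moved to the set of WT 4 (0.020) and with DESeq2 (0.00031). The call of marcksl1b was lost without single mutant 3 (adjusted p = 0.0664). That of akap12b was lost without WT 1 (0.102), WT 2 (0.0845), WT 3 (0.0924), single mutant 2 (0.0670) or single mutant 3 (0.0809). In that order these fits called 29, 31, 26, 48 and 34 genes in all, against 114 with all libraries, so that calls were lost widely. The log2 fold change of akap12b stayed between −1.50 and −1.29 when any 1 library was left out (for WT 4, together with the double mutants).

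**Figure D2:**
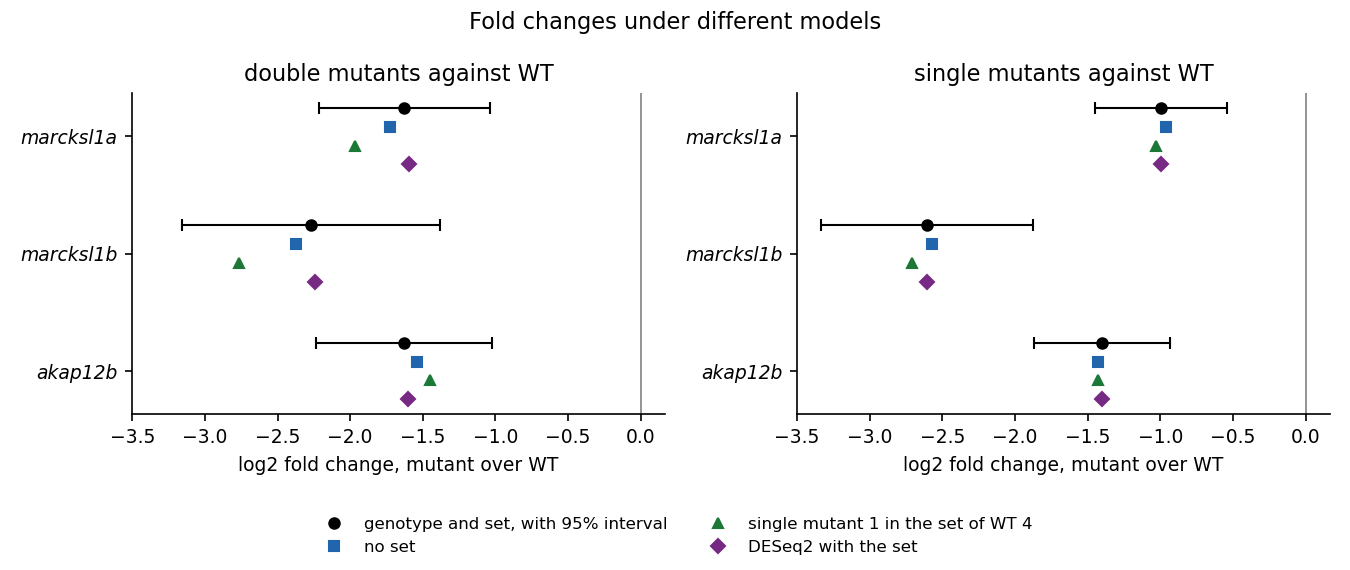
Log2 fold change, mutant over WT (horizontal axes), of the 3 genes in double mutants (left) and single mutants (right) under 4 models; black circles are the model of genotype and set with its 95% interval, squares the model with no set, triangles the model with single mutant 1 in the set of WT 4, and diamonds DESeq2. All values lie below 0, and marcksl1b has the lowest value in either comparison (−2.27 and −2.61 with the set).

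The effect of also losing yap1b was tested as the difference between the mutant genotypes, and it passed for none of the 3 genes with edgeR, nor with DESeq2, which called 0.854% of all genes tested. No member had an unadjusted p under 0.05 in edgeR either. Of all genes tested, 0.0303% were called in this comparison, and 4.61% had an unadjusted p under 0.05. For marcksl1a, double minus single mutants gave a log2 fold change of −0.63 (95% interval −1.40 to 0.14). It passed when WT 4 and the set term were left out (−0.76, adjusted p = 0.0239, edgeR), a model that called 4081 genes in all, and the intervals with the set leave room for differences of more than 2-fold. For marcksl1b the value was 0.33 (−0.86 to 1.53), and its sign turned with single mutant 1 in the set of WT 4 (−0.062). For akap12b it was −0.23 (−1.02 to 0.56). The double and single mutant CPM of marcksl1b and akap12b overlapped, but these CPM hold no correction for the set, which differs between the genotypes. In this comparison edgeR did not call yap1b, mutated in double mutants alone (−1.46, adjusted p = 0.0594). Nor did it call yap1, mutated in both (0.895, adjusted p = 0.223). DESeq2 called yap1b (adjusted p = 1.2e-07) and yap1 (0.00087). Passing no test here thus does not show that a level was unchanged by the loss of yap1b.

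Ratios of counts within a library, which need no scaling between libraries, were used to ask whether the genes changed by a common factor. The count of marcksl1b was 8.93%, 9.56% and 8.70% of that of marcksl1a in double mutants 1 to 3, 5.33%, 3.13% and 4.96% in single mutants 1 to 3, and 14.0%, 13.7%, 14.9% and 14.2% in WT 1 to 4. The 3 groups did not overlap, and the single mutants were lowest. These ratios hold no correction for the set, which differs between double and single mutants. The share of gene pairs with groups apart in this way was not counted. Relative to WT, the ratio was 0.638 times as high in double mutants and 0.307 times as high in single mutants. An exact two-sided permutation test gave p = 0.0571 for each, the smallest value that 3 against 4 libraries allow, and 0.114 after adjustment over the 4 ratio comparisons made. So the paralogs kept a narrow ratio within WT (SD 0.05 on the log2 scale, n = 4), including WT 4. Every mutant library was under the WT range. The test of each mutant genotype by itself, 3 against 4 libraries, could not pass a threshold of 0.05. The mutant libraries of both genotypes were not tested against WT as a single group.

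The ratio of akap12b to marcksl1a behaved otherwise. It was 53.7%, 92.8% and 88.5% in double mutants 1 to 3, 29.6%, 67.4% and 65.2% in single mutants 1 to 3, and 70.2%, 55.0%, 73.5% and 78.4% in WT 1 to 4. All groups overlapped, and the lowest library of each mutant genotype was library 1. The mean log2 ratio in double mutants was 0.15 above WT (exact permutation p = 0.629, adjusted 0.629), and the difference in single mutants was −0.44 (exact permutation p = 0.343, adjusted 0.457). Against WT 4 alone the sign for double mutants turned (−0.042).

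**Figure D3:**
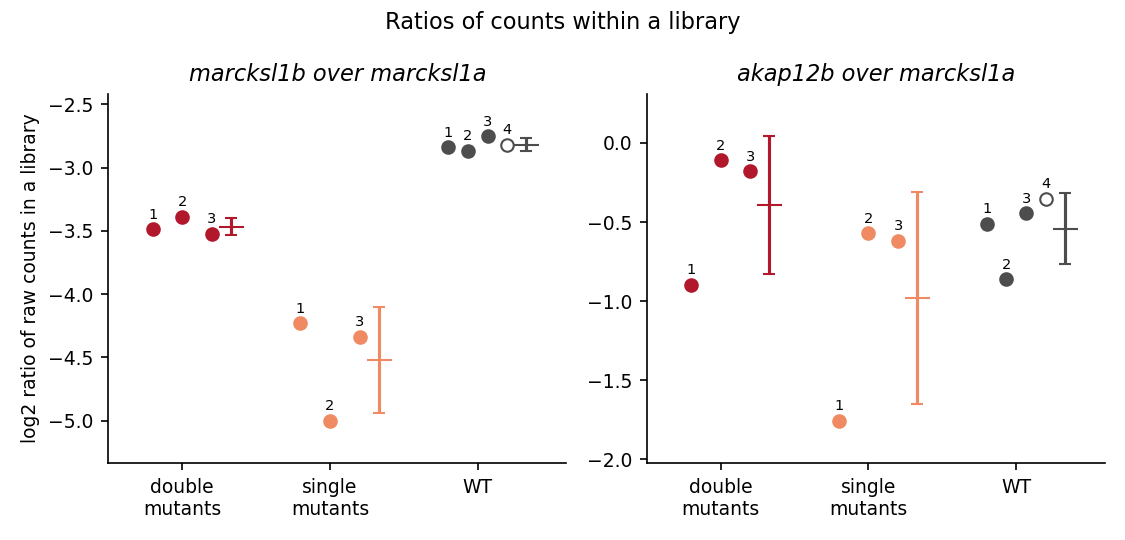
Log2 ratio of raw counts within each library (vertical axes) of marcksl1b to marcksl1a (left) and akap12b to marcksl1a (right) in double mutants, single mutants and WT; points are libraries with their replicate number, the open point is WT 4, and bars are the mean ± SD. On the left the 3 groups are apart, with WT at −2.86 to −2.75 and single mutants lowest, and on the right they overlap.

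Genes with the most similar profile were ranked by the root mean square difference of log2 CPM, each gene centred on its mean over the 10 libraries. This is a description over libraries that share their genotype steps and their depth, and the names come from the study's tables, which name mostly genes with a change. Nearest to marcksl1b among named genes were mylk5 (a difference of 0.343 log2 units), ccn1 (0.386) and boka (0.408). The first is named as a myosin light chain kinase, the second encodes a matricellular protein that is widely used as a Yap target gene, and the third is named after the Bcl2 family member Bok. The level of mylk5 was 52.0 to 75.6 CPM in double mutants, 31.3 to 68.4 CPM in single mutants and 198 to 218 CPM in WT, and boka had 59.2 to 70.8 CPM in double mutants, 53.6 to 104 CPM in single mutants and 234 to 293 CPM in WT. In every mutant library both stood below every WT library, like marcksl1b and 3.75% of all genes tested. They were picked for nearness to marcksl1b, so that this follows largely from the choice. Both kept a larger share of their WT level than marcksl1b. For ccn1 the level was 4.25 to 4.82 CPM in double mutants, 4.73 to 7.01 CPM in single mutants and 20.2 to 29.7 CPM in WT.

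Nearest to akap12b were adcy7 (0.125 log2 units), which encodes an adenylyl cyclase, an enzyme that makes the cyclic AMP that activates protein kinase A, then xylt1 (0.154), a xylosyltransferase that starts glycosaminoglycan chains on proteoglycans, and frya (0.155), a furry homolog. The level of adcy7 was 5.06 to 7.65 CPM in double mutants, 6.14 to 7.79 CPM in single mutants and 14.98 to 18.79 CPM in WT. That of xylt1 was 7.61 to 13.2 CPM in double mutants, 9.62 to 11.5 CPM in single mutants and 30.1 to 35.9 CPM in WT. Both passed the test in each mutant, with log2 fold changes of −1.55 in double and −1.19 in single mutants for adcy7, and of −1.74 in double and −1.59 in single mutants for xylt1 (edgeR, adjusted p between 0.0072 and 0.0183). These genes were picked for nearness to akap12b over the same libraries, so that passing follows largely from the choice. Levels of frya were low: 0.480 to 0.838 CPM in double mutants, 0.512 to 0.867 in single mutants and 1.70 to 2.17 in WT. It passed in neither mutant (edgeR adjusted p = 0.107 in double and 0.0660 in single mutants). Near marcksl1a stood the genes named str-3 (0.166 log2 units) and ELOVL6 (0.177), a fatty acid elongase, which had 13.9 to 17.4 CPM in double mutants, 25.0 to 48.6 CPM in single mutants and 49.2 to 70.7 CPM in WT. The members were farther from each other than from these genes, which were picked as the nearest. In log2 units, marcksl1a was 0.730 from marcksl1b and 0.447 from akap12b, and marcksl1b was 0.727 from akap12b. The median over all genes was larger: 0.823 from marcksl1a, 1.34 from marcksl1b and 0.836 from akap12b. By rank from marcksl1b, akap12b was number 53 and marcksl1a number 55. From marcksl1a, akap12b was number 183 and marcksl1b number 5026. From akap12b, marcksl1a was number 248 and marcksl1b number 4396. The difference also depends on how widely a gene ranges over the 10 libraries. The range was 3.64 log2 units for marcksl1b, 1.97 for marcksl1a and 2.14 for akap12b, so that ranks from different members share no common scale.

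**Figure D4:**
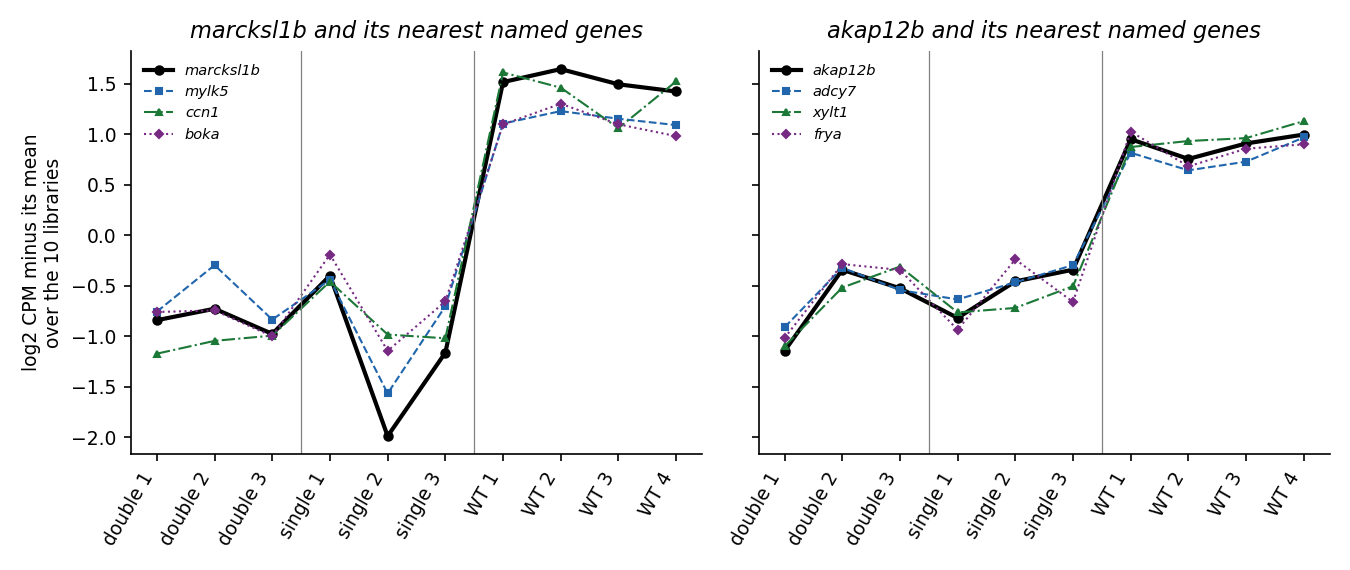
Log2 CPM minus its mean over the 10 libraries (vertical axis) in double mutants, single mutants and WT (horizontal axis) for marcksl1b (left) and akap12b (right) with the named genes nearest to each; vertical lines part the genotypes. The nearest genes, picked for likeness over these same libraries, follow the drop in the mutants. Of them, mylk5 and boka also share the low value of marcksl1b in single mutant 2.

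Few partners of these proteins carried a name, and the names come from the study's tables, which name mostly genes with a change. Shares over all genes tested are therefore no like background for the counts of named genes below. Of a list of 13 other MARCKS-family and PIP2-binding membrane proteins 3 were named, and cap1, which encodes a cyclase-associated protein that turns over actin filaments, passed the test: it was at 48.7 to 72.3 CPM in double mutants, 80.5 to 105 CPM in single mutants, 122 CPM in WT 4 and 115 to 132 CPM in WT 1 to 3, and its log2 fold change in double mutants was −1.05 ± 0.21 (SE, edgeR adjusted p = 0.0356). In single mutants none of the 3 passed with edgeR (3 were lower at an unadjusted p under 0.05, and DESeq2 called 1). Beside cap1 the named genes were add3a, the gene that DESeq2 called, and gap43, which was at most 1.10 CPM in any library. Over all genes tested, edgeR called 2.31% in double and 0.690% in single mutants in either direction, and an unadjusted p under 0.05 was found for 11.8% in double and 10.4% in single mutants. DESeq2 called 4.43% in double and 2.67% in single mutants. Of 22 protein kinase C genes listed, prkca, prkcb and prkci were named. None was called by edgeR in either mutant, with 2 lower at an unadjusted p under 0.05 in each and 2 lower with DESeq2 in double mutants (prkcb and prkci). These kinases and palm2akap2 are named because so few of their lists had a name. The level of prkci was 17.5 to 30.3 CPM in double mutants, 41.8 to 56.8 CPM in single mutants, 48.0 CPM in WT 4 and 66.3 to 71.5 CPM in WT 1 to 3. That of prkcb was 6.46 to 9.22 CPM in double mutants, 6.29 to 7.76 CPM in single mutants, 14.3 CPM in WT 4 and 6.37 to 8.23 CPM in WT 1 to 3, so that the double mutants overlapped WT 1 to 3 and only WT 4 was above them. Of 32 PIP2 kinases and phospholipases C, 10 were named and none was called by edgeR (4 at an unadjusted p under 0.05 in single and 3 in double mutants, and by DESeq2 2 in single and 1 in double mutants). Of 21 other anchoring proteins palm2akap2 alone was named, and it passed no test with either tool or at an unadjusted p under 0.05. Subunits of protein kinase A and calmodulins had no named gene, so that nothing can be said of them.

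Markers of the cell types in the embryo were read beside these genes. Over all genes tested, edgeR called 2.02% lower in double and 0.600% lower in single mutants. In either direction, an unadjusted p under 0.05 was found for 11.8% in double and 10.4% in single mutants. DESeq2 called 4.43% in double and 2.67% in single mutants, in either direction. Of 6 non-neural ectoderm markers, 3 were lower in double mutants (gata2a, tp63 and dlx3b) and 2 in single mutants (gata2a and tp63), with 6 lower in double and 5 in single mutants at an unadjusted p under 0.05, and 4 in double and 3 in single mutants with DESeq2. Their summed level was 422 to 454 CPM in double mutants, 469 to 512 CPM in single mutants, 768 CPM in WT 4 and 675 to 708 CPM in WT 1 to 3. The study had reported gata2a, tp63 and dlx3b as lower in double mutants, so that their calls here are no independent test. Of 12 enveloping layer markers listed, 5 were tested. Of these, edgeR called ppl, lower in double mutants, while 4 were lower and 1 higher (krt18b) there at an unadjusted p under 0.05, and DESeq2 called 2 lower. WT 4 was far above the other WT libraries for ppl, at 1328 CPM against 766 to 874 CPM in WT 1 to 3. Double mutants had 547 to 685 CPM of it and single mutants 750 to 837 CPM. The keratin gene krt18b had log2 fold changes of 0.97 in double and 1.06 in single mutants, and DESeq2 called it in single mutants (adjusted p = 0.0060) but edgeR did not (0.131). The summed level of the list was 1870 to 2418 CPM in double mutants, 2057 to 2459 CPM in single mutants, 4197 CPM in WT 4 and 2551 to 2925 CPM in WT 1 to 3. None of 4 neural, 8 mesoderm and 5 tested endoderm markers (9 listed) was called by edgeR or DESeq2 in either mutant. At an unadjusted p under 0.05, 1 neural and 2 mesoderm markers were higher and 1 endoderm marker was lower in single mutants, and none was called in double mutants. Of 9 yolk syncytial layer markers listed, 1 was tested, and neither tool called it. It was higher in single mutants at an unadjusted p under 0.05. The part of these cell types in the levels of marcksl1a, marcksl1b and akap12b was not tested.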

How the data were processed

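Whole medaka embryos at stage 16 were profiled by RNA-seq. Per the study's methods, the authors trimmed reads with Trimmomatic 0.39, removed ribosomal reads with sortmerna 2.1, mapped to ASM223467 with Hisat2 2.1, kept a mapping quality of 60 and used htseq-count with Ensembl 99. The deposited values are these raw counts. The later batch correction by the authors is not in them. Reads in no gene (10.6% to 11.3%) and ambiguous reads (7.94% to 9.86%) stayed out of library sizes and tests.

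The members and all gene lists were chosen with earlier results of these data known. The test took 16513 genes (mean count 10 or more) and all 10 libraries, with edgeR 4.0.16 (R 4.3.3): TMM, a model of genotype and set, the quasi-likelihood test and Benjamini-Hochberg adjustment over all genes tested, at 0.05. Standard errors are the fold change over the square root of F, and intervals are at 95%. Log2 CPM used a prior count of 2. DESeq2 1.42.0, other models, other filters and leaving out each library were alternatives, 2 of them chosen after seeing the data (no set and no WT 4, or no single mutant 1). The test was tried on simulated data.

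Named genes are the 3 members, yap1, yap1b, listed genes that passed the test and, per member, the 3 nearest named genes, 1 of which is not reported here. Outside this rule, add3a, gap43, prkca, prkcb, prkci, palm2akap2, krt18b and pip5k1ba are named after their values were seen. The study's tables pair 2208 IDs with symbols. RefSeq coordinates are those of ASM223467v1.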

Additional observations from a re-analysis of the deposited data

Results flagged for a closer look

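The level of yap1 in WT 4 was 168 CPM, against 278 to 288 CPM in WT 1 to 3, farther from its neighbours than Dixon's test allows for 4 values. Of the 7 WT groups of values looked at (the 3 genes, yap1, yap1b and the ratios), this was the 1 that stood out. Chance gives about 1 in 20 for each group, and more than that for at least 1 of the 7. The WT values of marcksl1a, marcksl1b and akap12b held no such library.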

How the results depend on the processing

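In single and double mutants, every model fitted gave a negative log2 fold change for marcksl1a, marcksl1b and akap12b, also with 1 library left out. With 1 library left out it ranged in double mutants from −1.64 to −1.58, −2.32 to −2.20 and −1.79 to −1.43 in that order of genes. In single mutants it ranged from −1.30 to −0.84, −3.09 to −2.29 and −1.50 to −1.29. The double mutant ranges never leave out WT 4, the WT library that the double mutants are set against. Leaving out WT 1 to 3 or a single mutant library hardly moves the double mutant values, so that their narrow range says little. For the single mutant ranges, WT 4 was left out together with the double mutants. The call of marcksl1a in double mutants held in all 18 alternatives. Calls that changed outside the left-out libraries were akap12b in double mutants with each set alone (−1.63, adjusted p = 0.0871, edgeR), and marcksl1a in single mutants, which passed with single mutant 1 in the set of WT 4 (−1.03), with DESeq2 (−0.998) and with no set and no single mutant 1 (−1.26). The causes were not tested.

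With 1 library left out, called genes numbered 26 to 172 in single mutants (114 with all), 213 to 574 in double mutants (381) and 0 to 15 in the difference between them (5). Left-out libraries gave log2 fold changes of −0.79 to −0.31, 0.02 to 0.83 and −0.37 to −0.0068 for marcksl1a, marcksl1b and akap12b in double against single mutants. Without the set, 3982 genes were called in double mutants and 317 in the difference. Single mutant 1 in the set of WT 4 gave 54 in the difference and −0.062 for marcksl1b. Each set alone called 90 in double mutants. DESeq2 called 441 in single mutants, 731 in double mutants and 141 in the difference. No set and no WT 4 gave 7182 in double mutants and 4081 in the difference, with marcksl1a at −0.76. No set and no single mutant 1 gave 61 in single mutants, 5336 in double mutants and 167 in the difference.

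A replicate block in place of the set, without WT 4, called 104, 7490 and 4391 genes in single mutants, in double mutants and in the difference, with marcksl1a at −0.74 in the difference (adjusted p = 0.0239, edgeR). It changed no other call of the 3 genes. Whether the numbers pair the libraries could not be told from so few pairs. Residuals across genes had an r of −0.0619 to 0.490 for equal numbers (9 pairs) and −0.414 to 0.355 for unequal ones (18 pairs). The highest r, 0.490, was between single mutant 1 and double mutant 1, but not every library correlated best with its own number.

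The log2 ratio of marcksl1b to marcksl1a differed from WT by −0.69 to −0.62 in double mutants and by −1.85 to −1.46 in single mutants with any library left out. That of akap12b to marcksl1a differed by 0.0059 to 0.40 and by −0.64 to −0.051, and in double mutants it reversed against WT 4 alone (−0.042). Without WT 4 the double mutants have no WT library of their set, so that no value with the set was possible. Of the nearest named genes, 3 of 3 for marcksl1b and 2 of 3 for the others were shared under each alternative. The coefficient of variation from counting alone was at most 3.93% for the 3 genes in any library.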

Other observations

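Among the listed genes of the PIP2 pathway, pip5k1ba, a phosphatidylinositol phosphate kinase gene, was singled out after its values were seen. It had 22.8 to 32.7 CPM in double mutants, 0.716 to 1.27 CPM in single mutants, 23.0 CPM in WT 4 and 0.301 to 0.518 CPM in WT 1 to 3. WT 4 thus lay with the double mutants, and the gene passed the edgeR test in neither mutant (adjusted p = 0.749 in double and 0.0847 in single mutants). DESeq2 called it higher in single mutants (log2 fold change 1.38 with edgeR, DESeq2 adjusted p = 0.0040) and not in double mutants (0.744). None of the 3 genes above showed such a gap within WT.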
